A study of Mus musculus with 12 samples.

Results

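Stromal cells grown from mouse kidney were set against stromal cells grown from mouse heart, 4 arrays of each, to ask how far 2 populations that the labels describe as resembling bone marrow mesenchymal stem cells (MSC) differ in the genes they express. Members of the comparison were the annotated genes whose probe was detected on all 4 arrays of at least 1 of the 2 tissues, which gave 9834 of the 10797 genes tested. Of these members 8859 were detected on all 8 arrays, 442 on all 4 arrays of kidney cells but not of heart cells, and 533 on all 4 arrays of heart cells but not of kidney cells. Total RNA, taken with a Qiagen kit and no DNase step, was labelled with biotin and read on Illumina bead arrays of a single colour. The groups are kidney-derived cells (4), heart-derived cells (4) and bone marrow MSC (4 of the 12 arrays). The bone marrow arrays entered the normalization, the probe filter, the choice of a gene's probe and the shared estimate of spread. They are not compared here. The series text calls the 4 samples of each cell type biological replicates and names no animals or days, so a p-value here measures only how these samples vary among themselves. The sources used here give no strain, age, sex, culture medium, passage or sort of the cells, and no genotype or treatment is named for any group.

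MSC are fibroblast-like cells that adhere to plastic and can form bone, fat and cartilage in culture, and similar cells can be grown from the connective tissue of most organs. Stromal cells of different organs keep a record of where they arose, chiefly in the Hox genes and other homeobox and T-box genes that lay out the embryo. They also make much of the matrix around them and secrete growth factors and their inhibitors that instruct neighbouring epithelium and vessels.

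The 8 arrays were alike in quality. Mean raw intensity was 1003.8 to 1049.3 on the kidney arrays and 934.6 to 1065.8 on the heart arrays, and 19204 to 19577 probes were detected on the kidney arrays and 18863 to 19792 on the heart arrays. Across genes, which are not independent replicates, normalized values of different kidney arrays correlated at 0.993 to 0.995 and those of different heart arrays at 0.994 to 0.995, whereas a kidney and a heart array correlated at 0.935 to 0.947. No array stood apart from its tissue. Precision is limited by the number of arrays. Values below are normalized log2 intensities, on which the mean detection floor lay at 5.59 for kidney and 5.59 for heart arrays. The table repeats some probe identifiers with different values, and for 69 of 180 genes named by rule every kept probe has such an identifier, so the gene name behind those values is less certain. A level of one probe cannot be set against that of another probe. Changes are log2 fold changes, kidney minus heart, ± SE (limma, 4 arrays a tissue), and each adjusted p is a Benjamini-Hochberg value over all 10797 genes. Where no array of the dimmer tissue detected a gene, or its mean there lay under the floor, the change is a lower bound written as "at least".

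Both populations carried the stromal genes that their label implies. Pdgfra and Pdgfrb, the receptors for platelet-derived growth factors, and Thy1, Eng, Itgb1, Cd44 and Vim were detected on all 8 arrays. Of 22 macrophage markers with a probe, 14 were detected on 0 arrays, among them Ptprc, the common leukocyte antigen, and Itgam, Adgre1, Tyrobp and Cd74. The endothelial genes Kdr, Vwf, Tie1 and Cldn5, the renal epithelial genes Epcam, Pax2, Pax8 and Krt18, and the heart muscle genes Myh6, Myl7, Actn2, Ryr2 and Nkx2-5 were each detected on 0 of the 8 arrays, as were all 9 adipocyte markers with a probe. Other markers were detected: 5 of 22 macrophage, 4 of 21 endothelial, 6 of 21 renal epithelial and 3 of 19 heart muscle markers with a probe on all 8 arrays, and 10 renal epithelial and 5 endothelial markers on all 4 kidney arrays, against 6 and 5 on all 4 heart arrays. In RNA from whole cultures fewer cells of a type and less RNA per cell cannot be told apart.

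About as many genes were higher as were lower in kidney cells. Of the 9834 members 5222 passed an adjusted p of 0.05 (limma), 2643 of them higher and 2579 lower in kidney cells. Over all genes tested 49% passed, 24.9% as higher and 24.1% as lower. The median log2 fold change was 0.02 over the members and 0.02 over all genes tested. Of the members 1162 passed with at least a 2-fold change, 417 of them higher and 745 lower in kidney cells, against 10.8% of all genes tested, or 3.86% higher and 6.91% lower. That count was 659 without background correction and 725 when only probes detected on all 12 arrays were used, with 232 higher against 427 lower and 280 higher against 445 lower. A fitted change of at least 4-fold was seen for 112 higher and 223 lower genes of the 9834 members, genes undetected in one tissue included. The 4-fold count was not taken under the alternatives. In 1158 of the 1162 genes the 4 kidney arrays did not overlap the 4 heart arrays. These genes were picked by p and fold on the same arrays, so that count follows largely from the choice and is no separate support. Of all genes tested, picked or not, 47% did not overlap. Of 2384 called genes with several kept probes, 38 had another probe that passed with the opposite sign. Probes that did not pass are not in that count. For Fads2, Hbegf and Psmb8, for example, 1 of 2 kept probes passed. The count was 2 of 3 for Masp1, 3 of 4 for Vcam1 and 2 of 7 for Cd44.

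**Figure D1:**
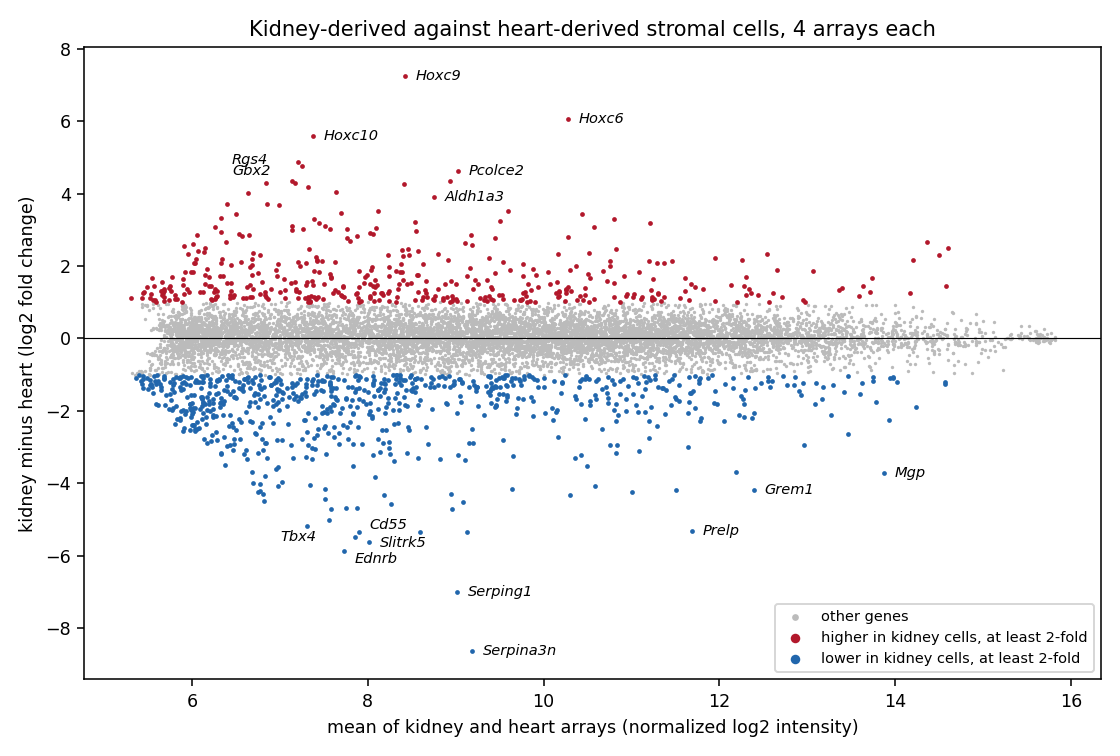
Log2 fold change (kidney minus heart, vertical axis) against the mean normalized log2 intensity of the kidney and heart arrays (horizontal axis) for each member, with genes past an adjusted p of 0.05 and at least 2-fold higher in kidney cells in red (417) and lower in blue (745). Labelled genes lie far out on either side, from Hoxc9 and Hoxc6 at the top to Serping1 and Serpina3n at the bottom; for genes undetected in one tissue the plotted fitted change is not a bound.

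Hox genes differed by paralogue group. These genes lie in 4 clusters and are numbered by paralogue group, low numbers being used toward the head and high numbers toward the tail of the embryo. All 9 members of groups 6 to 9 were higher in kidney cells, and of the 8 members of groups 1 to 5, 5 were lower and 0 higher in kidney cells (limma; 0 higher at an unadjusted p under 0.05 too). Of the 9 genes, 5 were detected throughout the kidney arrays only, so they had to differ to enter, and the 4 detected on all 8 arrays (Hoxc6, Hoxb7, Hoxb6 and Hoxa7) were all higher, with a median log2 fold change of 1.09. Over all genes detected on all 8 arrays 27.3% were higher, 25.2% lower, and the median was 0.03. Hoxc9 stood at 12.03, 12.01, 12 and 12.13 on the kidney arrays, against 4.96, 4.66, 4.74 and 4.86 on the heart arrays, where no probe detected it. Its kidney level was at least 87.4-fold higher (adjusted p = 7.42e-21). Hoxc6 gave 13.41, 13.17, 13.32 and 13.33 on the kidney arrays, against 7.46, 7.49, 7.11 and 6.93 on the heart arrays, a change of 6.06 ± 0.11 (adjusted p = 7.57e-19). Both genes left a wide gap between the tissues, and both lie in the HoxC cluster. Hoxd8 (at least 9.42-fold), Hoxb9 (at least 3.58-fold) and Hoxd9 (at least 1.91-fold) were likewise undetected in heart cells. The rises of Hoxa9 (2.02 ± 0.17), Hoxb7 (1.15 ± 0.10), Hoxb6 (1.03 ± 0.14) and Hoxa7 (0.75 ± 0.11) were smaller, with adjusted p from 7.14e-09 to 9.25e-06. When only probes detected on all 12 arrays were used, 3 of the 9 genes could be tested, and all 3 were higher.

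Posterior to these, 3 of the 4 members of groups 10 to 13 were detected on all kidney arrays and on 0 heart arrays. Over all 9834 members 85 were so detected. The 3 genes entered through the kidney arrays only, so they had to differ, and 0 members of these groups were detected on all 8 arrays. Of 12 genes of these groups with a probe, 6 were detected on 0 arrays of both tissues. Hoxc10 stood at 10.04, 10.35, 9.88 and 10.39 on the kidney arrays, against 4.59, 4.56, 4.60 and 4.58 on the heart arrays, at least 23.8-fold higher in kidney cells (adjusted p = 9.25e-18). Hoxd10 was at least 4.63-fold and Hoxc13 at least 1.84-fold higher. Hoxa13, the other member, was detected on 3 kidney and 4 heart arrays and did not pass (-0.41 ± 0.19, adjusted p = 0.081), although it did without heart replicate 3 (-0.51). Toward the head end of the series the order was turned. Hoxb4 read 9.23, 9.05, 8.91 and 8.81 on the kidney arrays, against 9.90, 10.11, 10.16 and 10.07 on the heart arrays, a change of -1.06 ± 0.15 (adjusted p = 7.12e-06). Hoxb3 (-0.94 ± 0.24), Hoxa2 (-0.75 ± 0.11), Hoxa5 (-0.71 ± 0.07) and Hoxa4 (-0.70 ± 0.19) were lower as well, each with all 4 kidney arrays under all 4 heart arrays. Hoxa3 (0.22 ± 0.22), Hoxb2 (0.20 ± 0.15) and Hoxb5 (-0.40 ± 0.21) did not pass (adjusted p = 0.432, 0.268 and 0.123). Hoxb5 passed as lower in kidney cells with the 8 arrays alone (-0.40), without background correction (-0.35) and with an offset of 50 (-0.38). Its SD was 0.05 on the kidney, 0.16 on the heart and 0.64 on the bone marrow arrays, all of which enter the SE. Hoxa3 passed as higher with the mean of its probes (0.39) and with only identifiers that occur once (0.56). Antisense transcripts overlap several Hox genes, and which strand a probe reads was not checked here.

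**Figure D2:**
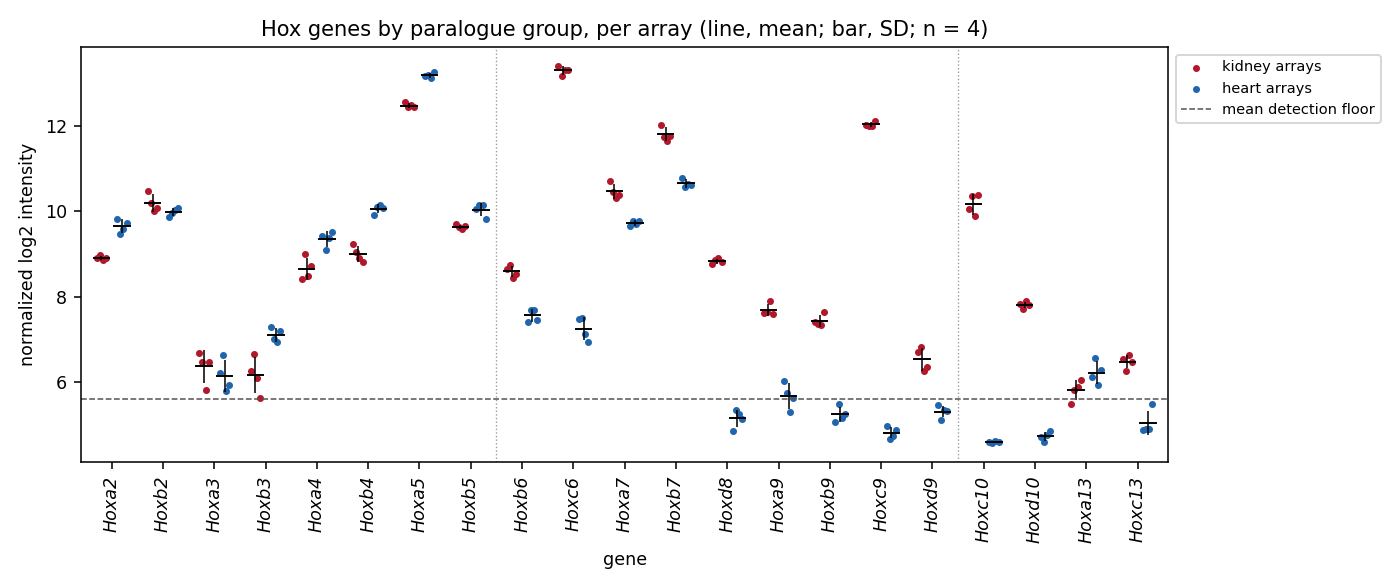
Normalized log2 intensity of the 21 Hox genes among the members on each array, kidney (red) left of heart (blue), ordered by paralogue group with dotted lines after groups 5 and 9; crosses give the mean and SD of 4 arrays and the dashed line the mean detection floor. Kidney arrays lie below heart arrays for Hoxa2, Hoxb3, Hoxa4, Hoxb4, Hoxa5 and Hoxb5, and above them for every gene of groups 6 to 9 and for Hoxc10, Hoxd10 and Hoxc13.

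Other developmental transcription factors split by gene rather than by the organ they are named for. Over all genes detected on all 8 arrays 27.3% were higher and 25.2% lower in kidney cells. Of 10 cardiac and epicardial factor genes so detected, 7 were higher and 3 lower in kidney cells. Irx5 and Irx3, homeobox genes of the Iroquois family that pattern heart conduction and limb, were among the higher ones. Irx5 stood at 9.14, 8.83, 9.12 and 9.20 on the kidney arrays, against 5.86, 5.91, 6.33 and 5.73 on the heart arrays (3.12 ± 0.13, adjusted p = 1.46e-13). Irx3 read 9.55, 9.42, 9.45 and 9.48 in kidney cells, against 6.75, 6.72, 6.33 and 6.51 in heart cells (2.90 ± 0.13). Hey1, a repressor gene switched on by Notch, was higher by 1.69 ± 0.15, and its relative Hey2 was at least 3.33-fold higher, being undetected in heart cells. Nfatc1, Srf, Zfpm2 and Gata6 made up the other 4 rises, from 0.54 to 0.82 in log2 fold change. Gata4, a master regulator of heart formation, did not pass (0.05 ± 0.20, adjusted p = 0.867): it was detected on 4 kidney and 2 heart arrays, and its fitted change was -0.0125 without heart replicate 4.

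Lower in kidney cells were several genes of the heart's progenitors and of organ mesenchyme. Isl1, which marks the second heart field, stood at 4.61, 4.78, 4.69 and 4.68 on the kidney arrays, where it was undetected, against 8.84, 8.70, 8.54 and 8.68 on the heart arrays, at least 8.58-fold lower (adjusted p = 8.38e-14). Tcf21, a factor of cardiac fibroblasts and also of kidney stroma, read 5.37, 5, 5.36 and 5.33 in kidney cells, undetected, against 8.30, 8.49, 8.52 and 8.09 in heart cells, at least 6.78-fold lower. Mef2c, which drives muscle genes, fell by 2.53 ± 0.15, and Nr2f2, a nuclear receptor of atrial and venous identity, fell by 1.44 ± 0.15. Among T-box genes, Tbx2 (at least 2.91-fold) and Tbx5 (at least 1.36-fold) were lower and undetected in kidney cells. Tbx4, known for hindlimb and lung mesenchyme, had one of the largest differences of all. Its kidney arrays read 5.03, 5.21, 5.08 and 5.10, against 10.66, 10.61, 10.67 and 10.44 on the heart arrays, at least 32.1-fold lower in kidney cells (adjusted p = 8.97e-17). Barx1, a homeobox gene of stomach and jaw mesenchyme, read 4.79, 4.73, 4.70 and 4.68 in kidney cells, against 9.96, 10.03, 9.72 and 9.88 in heart cells, at least 19.8-fold lower. All 4 heart arrays of both genes were far above the floor, and no kidney array detected either gene.

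Of the 10 renal and nephric factor genes detected on all 8 arrays, 4 were higher and 5 lower in kidney cells. The shares over all genes so detected were 27.3% higher and 25.2% lower. Foxc2, a forkhead gene of kidney and vessel mesenchyme, was higher by 1.85 ± 0.15. The lower genes included Osr1, an early marker of the tissue that gives rise to the kidney, and its relative Osr2. Osr1 stood at 6.84, 7.09, 6.41 and 6.55 in kidney cells, against 9.51, 9.50, 9.85 and 9.58 in heart cells (-2.89 ± 0.15, adjusted p = 2.61e-12). Osr2 gave 6.68, 6.65, 6.85 and 6.10 in kidney cells, against 9.71, 9.66, 9.83 and 9.66 in heart cells (-3.14 ± 0.14), and Foxf1, a forkhead gene of gut and lung mesenchyme, gave 6.77, 6.88, 6.69 and 7.11 in kidney cells, against 9.86, 10.09, 10.01 and 10.15 in heart cells (-3.17 ± 0.12). All 3 genes were detected on every kidney array. Gbx2, a homeobox gene that sets the midbrain and hindbrain border, read 9.85, 9.57, 9.72 and 9.43 in kidney cells, against 4.96, 4.94, 4.81 and 4.76 in heart cells, where it was undetected (at least 16.5-fold higher, adjusted p = 5.45e-15). Dmrta2, a factor of the developing forebrain, was undetected in heart cells and at least 13.1-fold higher in kidney cells.

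**Figure D3:**
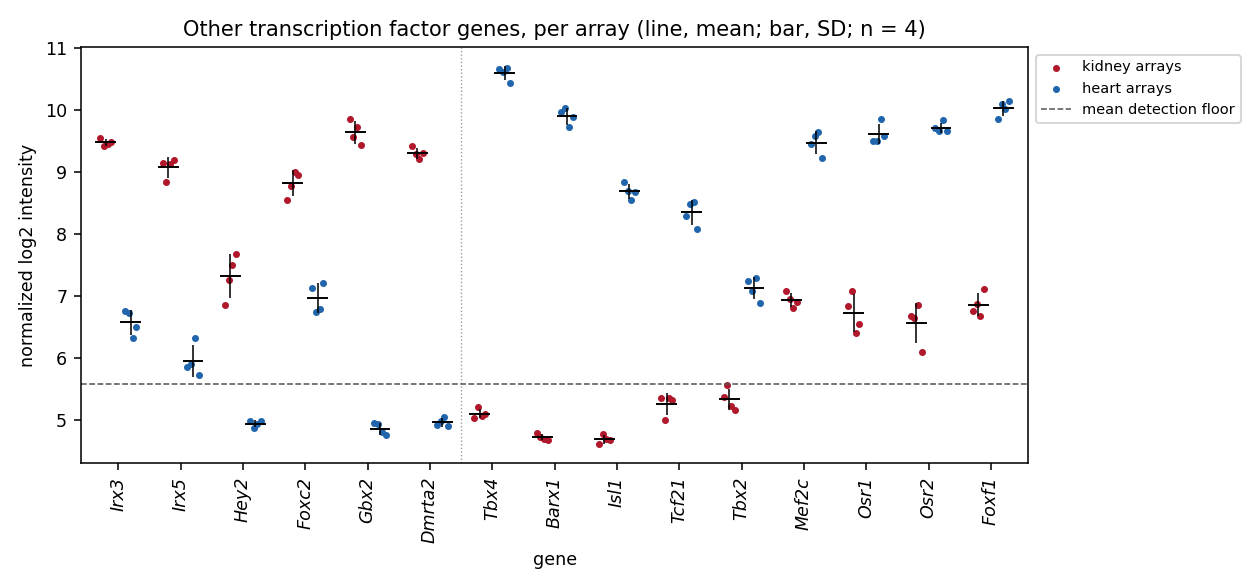
Normalized log2 intensity of 15 transcription factor genes on each array, kidney (red) left of heart (blue), with the 6 higher in kidney cells left of the dotted line and the 9 lower ones right of it; crosses give the mean and SD of 4 arrays and the dashed line the mean detection floor. Hey2, Gbx2 and Dmrta2 lie under the floor on all heart arrays, and Tbx4, Barx1, Isl1, Tcf21 and Tbx2 lie under it on all kidney arrays.

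Genes of DNA replication and of mitosis were higher in kidney cells almost throughout. Cells entering S phase switch on replication genes through E2F factors, and later switch on mitotic genes, many of them through a pair of promoter elements, the cell cycle homology region and the CCAAT box. Of 25 S-phase genes detected on all 8 arrays, 24 were higher in kidney cells and 0 lower (0 lower at an unadjusted p under 0.05 too), with a median log2 fold change of 0.87. Of 19 mitosis genes 17 were higher and 0 lower (again 0 lower unadjusted), with a median of 0.58. The share of genes called was 27.3% higher and 25.2% lower over all genes detected on all 8 arrays. Mean level over the S-phase genes ran from 10.09 to 10.21 on the kidney arrays, against 9.16 to 9.43 on the heart arrays. For mitosis genes it ran from 11.16 to 11.27 on the kidney arrays, against 10.55 to 10.78 on the heart arrays.

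The promoters of 3 of these genes are printed to show short motifs that were counted over both lists. They are RefSeq promoter windows of build GRCm38.p6, 250 bases before to 50 after the gene's start, on the gene's strand, and capitals mark the motifs found on either strand. For Cdc6 (chr11:98907901-98908200, plus strand) the capitals mark an E2F site. For Cdk1 (chr10:69352863-69353162, minus strand) and Aurka (chr2:172370521-172370820, minus strand) they mark cell cycle homology regions and CCAAT boxes.
Cdc6: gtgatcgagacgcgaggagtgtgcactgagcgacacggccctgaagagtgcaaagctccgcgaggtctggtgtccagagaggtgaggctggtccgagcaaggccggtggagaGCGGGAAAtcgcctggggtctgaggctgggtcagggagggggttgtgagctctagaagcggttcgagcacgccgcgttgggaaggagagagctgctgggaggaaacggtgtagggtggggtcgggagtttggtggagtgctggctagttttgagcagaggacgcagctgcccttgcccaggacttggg
Cdk1: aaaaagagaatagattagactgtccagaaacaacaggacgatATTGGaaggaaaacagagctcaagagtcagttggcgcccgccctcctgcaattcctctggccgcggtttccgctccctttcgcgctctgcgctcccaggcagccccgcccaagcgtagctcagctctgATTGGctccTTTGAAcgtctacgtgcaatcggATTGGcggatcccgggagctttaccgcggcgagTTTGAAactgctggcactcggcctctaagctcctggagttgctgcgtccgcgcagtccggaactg
Aurka: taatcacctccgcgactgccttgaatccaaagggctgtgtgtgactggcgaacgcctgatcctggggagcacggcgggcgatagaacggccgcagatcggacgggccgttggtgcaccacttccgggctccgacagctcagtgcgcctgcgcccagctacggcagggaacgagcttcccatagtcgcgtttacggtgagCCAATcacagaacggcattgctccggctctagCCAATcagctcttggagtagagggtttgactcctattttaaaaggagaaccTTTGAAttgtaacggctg
E2F sites were searched as TTTCCCGC or TTTGGCGC, cell cycle homology regions as TTTGAA and CCAAT boxes as CCAAT, on both strands, and no marked match overlaps another. An E2F site was found in 7 of the 21 S-phase members with a promoter window, against 1.8% of all 27025 genes with one, and in 0 of 17 mitosis members, so most S-phase members had none in this window. The cell cycle homology region was found in 14 of 17 mitosis members and in 4 of 21 S-phase members, against 20.2% of all genes. A CCAAT box was found in 12 of 17 mitosis members and 11 of 21 S-phase members, against 41.1% of all genes. These are matches of letters, not binding sites.

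Cdc6, which loads the replicative helicase onto origins, read 9.34, 9.06, 9.32 and 9.11 on the kidney arrays, against 7.99, 7.76, 7.85 and 8.13 on the heart arrays (1.27 ± 0.12, adjusted p = 3.65e-08). Cdk1, the kinase that starts mitosis, read 12.30, 12.36, 12.42 and 12.23 in kidney cells, against 11.44, 11.52, 11.36 and 11.71 in heart cells (0.82 ± 0.10, adjusted p = 1.13e-06). Aurka, a kinase of the spindle poles, read 12.02, 11.99, 12.11 and 11.90 in kidney cells, against 11.17, 11.05, 10.84 and 11.28 in heart cells (0.92 ± 0.09). In each of the 3 genes all kidney arrays were above all heart arrays. The largest rises on these lists were Ung, a uracil-DNA repair enzyme (1.85 ± 0.15), and Rrm2, a subunit of ribonucleotide reductase (1.66 ± 0.14). Cdc6 came next, and then the cyclin gene Ccne2 (1.12 ± 0.15) and the helicase subunit gene Cdc45 (1.09 ± 0.14). In mitosis, Tpx2, a spindle assembly factor (0.82 ± 0.13), and Top2a, which untangles sister DNA (0.70 ± 0.10), were also higher. On the authors' deposited processed values neither Ung (0.19) nor Cdk1 (0.22) passed. That alternative used only the first entry of a repeated identifier, and both genes rest on repeated identifiers. The probe may thus have changed along with the processing, and the 2 cannot be told apart. With every kept probe fitted, 2 of 3 Ung probes and 1 of 2 Cdk1 probes passed as higher. Over all genes detected on all 8 arrays 27.3% were higher and 25.2% lower. Of 14 cell cycle inhibitor and D cyclin genes, which restrain or start the cycle, 2 were higher and 7 lower in kidney cells. The lowest were Cdkn1b, the inhibitor p27 (-0.88 ± 0.12), and Rb1, the retinoblastoma protein that holds E2F in check (-0.69 ± 0.09).

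Genes of sterol synthesis were lower in kidney cells. Cells make cholesterol through a chain of enzymes whose genes are switched on together by sterol regulatory element binding proteins, which Insig1 holds back when sterol is plentiful and which also raise Insig1 itself. Of 22 genes of sterol and fatty acid synthesis, all detected on all 8 arrays, 1 was higher and 15 were lower in kidney cells, against 27.3% higher and 25.2% lower of all genes detected on all 8 arrays, and 10 of the 15 fell by at least 2-fold. The median log2 fold change of the list was -0.84. The promoters of Insig1 (chr5:28071162-28071461, plus strand) and Cyp51 (chr5:4104648-4104947, minus strand) are shown as 2 of the members that fell, from the same RefSeq windows, with CCAAT boxes in capitals.
Insig1: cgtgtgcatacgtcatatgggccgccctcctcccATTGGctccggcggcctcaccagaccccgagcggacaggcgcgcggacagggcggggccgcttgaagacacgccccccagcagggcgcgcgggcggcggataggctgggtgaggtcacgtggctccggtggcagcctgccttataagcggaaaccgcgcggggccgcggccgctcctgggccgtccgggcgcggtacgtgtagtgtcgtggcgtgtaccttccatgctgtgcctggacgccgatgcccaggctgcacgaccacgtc
Cyp51: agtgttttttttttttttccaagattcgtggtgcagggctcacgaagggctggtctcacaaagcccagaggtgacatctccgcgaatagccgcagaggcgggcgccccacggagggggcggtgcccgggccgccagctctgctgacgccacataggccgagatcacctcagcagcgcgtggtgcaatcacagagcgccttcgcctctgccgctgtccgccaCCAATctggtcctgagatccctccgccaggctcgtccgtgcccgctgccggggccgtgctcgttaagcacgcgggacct
A CCAAT box, the element at which the factor NF-Y binds beside sterol regulatory elements, was found in 14 of the 16 members with a window, against 41.1% of all genes. The sterol regulatory element, searched on both strands as TCACNCCAC, was found in 0 of the 16, against 1.44% of all genes, which says only that these letters are not in these windows. Insig1 read 8.24, 8.14, 8.54 and 8.32 on the kidney arrays, against 10.05, 10.21, 10.31 and 10.18 on the heart arrays (-1.88 ± 0.11, adjusted p = 1.63e-11). Cyp51, a sterol demethylase, read 10.30, 10.36, 10.37 and 10.09 in kidney cells, against 11.53, 11.58, 11.30 and 11.41 in heart cells (-1.17 ± 0.12). The tissues did not overlap for either gene. Scd1, which desaturates fatty acids, fell by 1.46 ± 0.12, Fdps, which makes farnesyl diphosphate, fell by 1.24 ± 0.09, and the sterol dehydrogenase gene Nsdhl fell by 1.22 ± 0.09. Fads2, a desaturase of polyunsaturated fatty acids, was the member that rose (0.39 ± 0.10, adjusted p = 0.00267), and only 1 of its 2 kept probes passed. Dhcr7, Fasn, Acly, Srebf1, Fads1 and Scd2 did not pass.

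**Figure D4:**
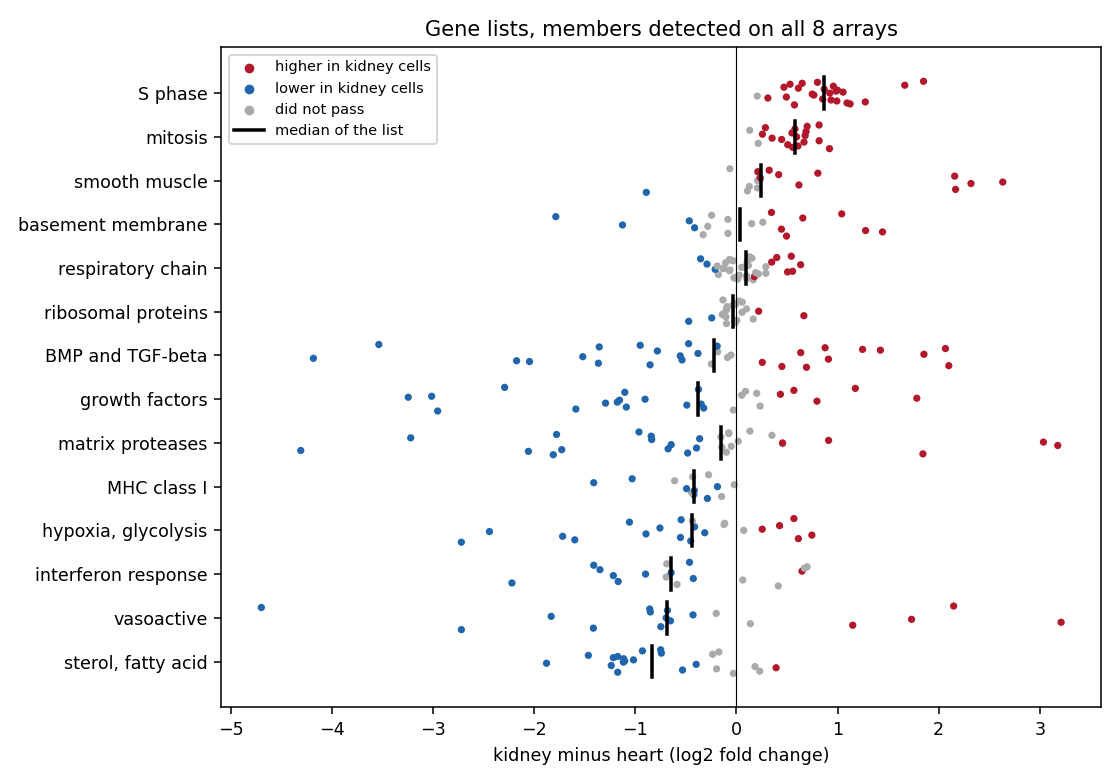
Log2 fold change (kidney minus heart, horizontal axis) of each member detected on all 8 arrays in 14 gene lists, red where higher, blue where lower and grey where the gene did not pass, with a black bar at the list's median. S-phase and mitosis genes lie right of 0, with medians of 0.87 and 0.58, sterol and fatty acid genes lie mostly left of it, with a median of -0.84, and ribosomal and respiratory chain genes lie around it.

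Part of the smooth muscle programme was higher in kidney cells. Contractile cells use smooth muscle isoforms of actin, myosin and their regulators, many of them switched on by serum response factor through CArG boxes. Of 17 contractile genes detected on all 8 arrays, 10 were higher and 1 lower in kidney cells, against 27.3% and 25.2% of all genes so detected, with a median of 0.24. Des, an intermediate filament protein of muscle, read 10.51, 10.48, 10.35 and 10.34 on the kidney arrays, against 8, 7.74, 7.69 and 7.72 on the heart arrays (2.63 ± 0.12, adjusted p = 6.71e-13). Actg2, the smooth muscle gamma actin, read 15.34, 15.14, 15.33 and 15.35 in kidney cells, against 13.23, 13.13, 13.09 and 13.05 in heart cells (2.17 ± 0.07). Mylk, the kinase that starts smooth muscle contraction, read 13.36, 13.30, 13.29 and 13.42 in kidney cells, against 11.27, 11.26, 11.22 and 10.99 in heart cells (2.16 ± 0.21). All 3 genes were separated between the tissues. Csrp2, a LIM protein of smooth muscle, was higher by 2.32 ± 0.08, and Kcnmb1, a subunit of the calcium-activated potassium channel of smooth muscle, was at least 4.59-fold higher and undetected in heart cells. The 2 genes best known in this programme, chosen after their values were seen, did not pass: Acta2, smooth muscle actin (0.11 ± 0.06, adjusted p = 0.153), and Myh11, smooth muscle myosin (0.24 ± 0.15, adjusted p = 0.197). The Acta2 probe lay near the top of the scale. Its raw values were 53966.5 to 60714.2 on the kidney arrays and 48247.5 to 56119.3 on the heart arrays. The highest raw value of any probe was 61228.4 to 62841.4 on the kidney and 59363.6 to 64071.3 on the heart arrays. Whether this hides a difference was not tested. Acta2 passed as higher (0.43) when the mean of its probes was used, and 2 of its 5 kept probes passed as higher. Acta1, skeletal muscle actin, was lower (-0.89 ± 0.12), as was Itga8, an integrin of mesangial and smooth muscle cells (-1.62 ± 0.21), which 2 kidney and 4 heart arrays detected. A CArG box, searched by its consensus on both strands, was found in 3 of 17 contractile members with a window and in 4 of 18 members of a list of YAP and serum response factor targets, against 1.81% of all genes. Of 20 genes of that second list detected on all 8 arrays, 7 were higher and 4 lower in kidney cells, with a median of -0.05. Fjx1 (2.17 ± 0.11) and Ankrd1 (1.67 ± 0.10), both known targets of YAP, rose most. The TEAD motif GGAATG, bound by the partners of YAP, was found in 10 of the 18 windows, against 16.6% of all genes.

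Receptors and peptides that act on vessel tone differed in both directions. Of 17 vasoactive peptide and prostanoid genes detected on all 8 arrays, 4 were higher and 11 lower in kidney cells, against 27.3% and 25.2% of all genes so detected. Among ligands, Nppb, which encodes B-type natriuretic peptide, read 10.46, 10.01, 9.84 and 10.23 on the kidney arrays, against 6.94, 7.06, 6.75 and 6.95 on the heart arrays (3.21 ± 0.22, adjusted p = 3.77e-10). Npr3, the receptor that clears natriuretic peptides, rose by 1.73 ± 0.11, and Gucy1b1, a subunit of the nitric oxide receptor, was at least 2.69-fold higher. Rgs4, which shortens signals of G protein-coupled receptors, read 9.58, 9.47, 9.60 and 9.91 in kidney cells, against 4.77, 4.85, 4.69 and 4.72 in heart cells, where it was undetected (at least 16.5-fold higher). All 4 of these genes were higher in kidney cells on every array. The other way, Ednrb, the endothelin B receptor, read 4.68, 4.84, 4.92 and 4.75 in kidney cells, where it was undetected, against 10.38, 10.87, 10.88 and 10.49 in heart cells, at least 33.5-fold lower (adjusted p = 5.02e-13). Adm, which encodes the vasodilator adrenomedullin, read 8.74, 8.52, 8.91 and 9.06 in kidney cells, against 11.38, 11.34, 11.82 and 11.58 in heart cells (-2.72 ± 0.15), and Ramp3, which makes a calcitonin-family receptor respond to adrenomedullin, read 6.52, 6.29, 6.73 and 6.90 in kidney cells, against 11.44, 11.23, 11.11 and 11.43 in heart cells (-4.70 ± 0.23). Both angiotensin type 1 receptor genes were undetected in kidney cells, Agtr1a at least 3.13-fold and Agtr1b at least 7.64-fold lower. The bradykinin receptor gene Bdkrb1 (at least 4.99-fold) and Vip, a vasodilator neuropeptide gene (at least 9.8-fold), were lower and undetected as well.

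In the BMP and TGF-beta family, ligands bind paired receptors that phosphorylate Smad proteins, and secreted antagonists trap the ligands outside the cell. Of 30 genes of this family detected on all 8 arrays, 11 were higher and 15 lower in kidney cells, against 27.3% and 25.2% of all genes so detected. Of the ligand genes that passed, 5 were higher (Bmp4, Tgfb1, Tgfb2, Tgfb3 and Inhba) and 2 lower (Bmp3 and Gdf10), grouped so after their values were seen. Bmp4 read 8.51, 8.68, 8.71 and 8.81 on the kidney arrays, against 6.89, 6.73, 6.40 and 6.28 on the heart arrays (2.10 ± 0.16, adjusted p = 1.70e-09). Tgfb2 (2.07 ± 0.12), Inhba, which encodes the activin A subunit (1.85 ± 0.10), and Tgfb1 (1.25 ± 0.11) were higher too. Of the secreted antagonist genes that passed, Grem1, Fst, Chrd, Nbl1, Twsg1 and Bmper were lower and Fstl3 was higher, again grouped after their values were seen. Grem1, a BMP antagonist, read 10.15, 10.19, 10.37 and 10.50 in kidney cells, against 14.47, 14.37, 14.64 and 14.45 in heart cells (-4.18 ± 0.08, adjusted p = 3.35e-18). Fst, which binds activin, read 11.23, 11.23, 11.09 and 11.23 in kidney cells, against 13.32, 13.38, 13.39 and 13.38 in heart cells (-2.17 ± 0.11), and Chrd, another BMP antagonist, fell by 2.05 ± 0.19. Tgfbr3, the co-receptor betaglycan, fell by 3.53 ± 0.21. Fstl3, an antagonist of activin, rose by 0.91 ± 0.13, and the ligand gene Bmp3 was at least 2.64-fold lower in kidney cells, where it was undetected.

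Wnt genes showed the same mixture. Of 20 Wnt pathway genes detected on all 8 arrays, 4 were higher and 9 lower in kidney cells. Wnt2, a ligand of lung and heart development, read 8.06, 7.96, 7.94 and 7.93 on the kidney arrays, against 5.52, 4.95, 4.86 and 5 on the heart arrays, where it was undetected (at least 5.21-fold higher, adjusted p = 6.96e-09). Rspo3, a secreted amplifier of Wnt signals, read 6.28, 5.4, 6.38 and 5.65 in kidney cells, against 11.05, 11.50, 11.62 and 10.88 in heart cells (-5.33 ± 0.21, adjusted p = 4.97e-14). Sfrp1, a secreted inhibitor (-2.99 ± 0.32), and the Dickkopf family gene Dkk3 (-2.07 ± 0.14) were lower as well. An amplifier and an inhibitor of the pathway, Rspo3 and Sfrp1, were thus lower together in kidney cells. Of 25 growth factor and receptor genes detected on all 8 arrays, 5 were higher and 15 lower, against 27.3% and 25.2% of all genes so detected, with a median of -0.38. Hgf, a ligand for epithelial Met receptors, read 7.95, 8.09, 8.08 and 8 in kidney cells, against 11.17, 11.45, 11.38 and 11.09 in heart cells (-3.24 ± 0.11, adjusted p = 9.68e-15). Fgf10, which drives branching of lung epithelium, read 5.48, 4.84, 5.51 and 5.78 in kidney cells, against 10.18, 10.03, 10.27 and 9.92 in heart cells (at least 22.1-fold lower). Mdk, the heparin-binding factor midkine (-3.01 ± 0.17), Angpt2, a ligand of the endothelial Tie receptors (-2.95 ± 0.11), and Vegfd, a lymphatic growth factor (-2.29 ± 0.15), were lower. Higher in kidney cells were Pdgfb (at least 4.35-fold), Hbegf, a ligand of the EGF receptor (1.78 ± 0.15), and Ret, the receptor for GDNF, which steers growth of the ureteric bud (2.31 ± 0.16) and was detected on 4 kidney and 2 heart arrays. Of 16 genes of the insulin-like growth factor axis 4 were higher and 8 lower, among them both ligands, Igf1 (-1.51 ± 0.18) and Igf2 (-1.34 ± 0.18), and the binding protein gene Igfbp4 (-1.42 ± 0.09).

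**Figure D5:**
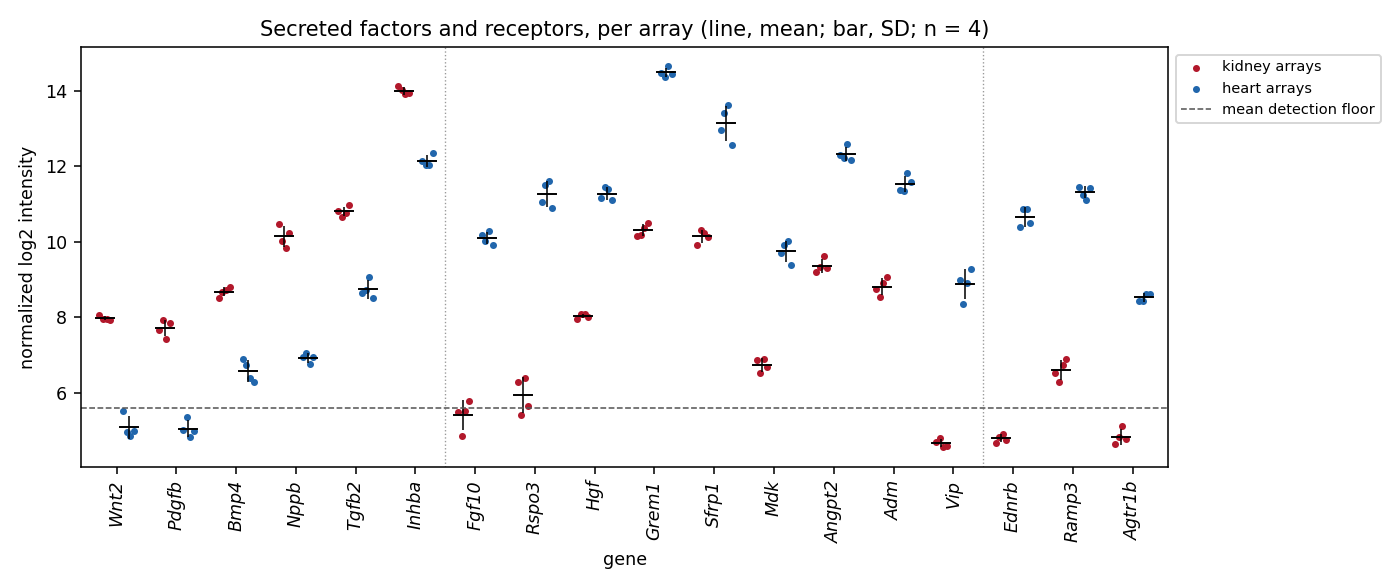
Normalized log2 intensity of 18 genes of secreted factors and receptors on each array, kidney (red) left of heart (blue); factors higher in kidney cells stand left of the first dotted line, factors lower in kidney cells between the lines and receptor genes right of the second, with crosses for the mean and SD of 4 arrays and a dashed line at the mean detection floor. Grem1 lies at 10.30 ± 0.16 in kidney and 14.48 ± 0.11 in heart cells, and Ednrb, Agtr1b and Vip lie under the floor on all kidney arrays.

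Most interstitial collagens did not pass, and 2 stood out. Of 15 collagen genes detected on all 8 arrays 3 were higher and 4 lower in kidney cells, against 27.3% and 25.2% of all genes so detected, and 8 did not pass. Col2a1, the collagen of cartilage, read 9.67, 9.83, 9.32 and 9.63 on the kidney arrays, against 6.84, 6.23, 6.29 and 6.90 on the heart arrays (3.05 ± 0.18, adjusted p = 2.17e-11). Col7a1, which anchors basement membranes, was higher by 2.11 ± 0.11, Col1a1, the main bone and skin collagen, by 0.57 ± 0.16, and Col6a1, of microfibrillar collagen, was lower (-1.07 ± 0.21). Basement membranes are sheets of type IV collagen, laminin and nidogen. Of 18 basement membrane genes 7 were higher, with Col4a1 (1.44 ± 0.08) and Col4a2 (1.28 ± 0.13) first, and 4 were lower, with Nid2 (-1.79 ± 0.16) and Lama2 (-1.13 ± 0.17) at the end. Among 28 proteoglycan and matricellular genes 7 were higher and 12 lower. Prelp, a leucine-rich proteoglycan, read 8.80, 8.98, 9.13 and 9.19 in kidney cells, against 14.34, 14.53, 14.63 and 13.88 in heart cells (-5.32 ± 0.20, adjusted p = 2.47e-14). Esm1, an endothelial and stromal proteoglycan, read 8.37, 8.21, 7.85 and 8.12 in kidney cells, against 12.31, 12.27, 12.44 and 12.85 in heart cells (-4.33 ± 0.26). Has2, which makes hyaluronan, was higher by 2.32 ± 0.12. Mgp, the matrix Gla protein that keeps soft tissue from calcifying, read 11.91, 12.03, 12.03 and 12.09 in kidney cells, against 15.77, 15.73, 15.73 and 15.69 in heart cells (-3.71 ± 0.07, adjusted p = 2.75e-18).

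Enzymes that cut the matrix changed without a common direction. Of 29 protease and inhibitor genes detected on all 8 arrays 5 were higher and 14 lower in kidney cells, against 27.3% and 25.2% of all genes so detected, and the others did not pass. Pcolce2, which helps trim procollagen ends, read 11.31, 11.30, 11.32 and 11.41 on the kidney arrays, against 6.79, 6.70, 6.55 and 6.83 on the heart arrays (4.62 ± 0.13, adjusted p = 5.54e-16). Htra1, a secreted serine protease, read 12.78, 12.77, 12.84 and 12.81 in kidney cells, against 9.56, 9.71, 9.58 and 9.65 in heart cells (3.18 ± 0.08), and the collagenase gene Mmp13 read 9.32, 9.18, 8.85 and 9.01 in kidney cells, against 6.23, 6.06, 5.87 and 6.05 in heart cells (3.03 ± 0.13). Serpinb2, an inhibitor of plasminogen activators, was higher by 4.27 ± 0.35 and was detected on 3 of the heart arrays. Mmp3, stromelysin, read 6.48, 6.74, 6.23 and 6.36 in kidney cells, against 9.01, 10.11, 10.22 and 9.35 in heart cells (-3.22 ± 0.21), and Adamtsl3, a matrix protein related to the ADAMTS proteases, read 6.62, 6.75, 7.02 and 6.80 in kidney cells, against 10.99, 11.17, 11.23 and 11.02 in heart cells (-4.31 ± 0.12). The membrane protease gene Mmp16 was at least 17.7-fold lower and Fap, fibroblast activation protein, at least 5.99-fold lower in kidney cells. The metalloproteinase genes Mmp13 and Mmp3 thus lay on opposite sides.

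The largest fitted difference among all members was that of an acute-phase gene, Serpina3n, and the complement inhibitor genes Serping1 and Cd55 were low or undetected in kidney cells too. Complement is a cascade of plasma proteases, and host cells shield themselves with inhibitors on their surface or around them. Serpina3n, a secreted protease inhibitor of the acute phase, read 4.76, 4.93, 5.01 and 4.79 on the kidney arrays, where it was undetected, against 13.14, 13.71, 13.96 and 13.16 on the heart arrays, at least 239.7-fold lower (adjusted p = 3.24e-17). Serping1, the inhibitor of C1, read 5.91, 5.49, 5.52 and 5.18 in kidney cells, with 1 array detected, against 12.42, 12.75, 12.78 and 12.10 in heart cells, at least 115-fold lower. Cd55, decay-accelerating factor, read 5.35, 5, 4.96 and 5.58 in kidney cells, undetected, against 10.46, 10.56, 10.85 and 10.45 in heart cells, at least 31.8-fold lower. These 3 genes left the widest gaps on their lists. Of 5 complement genes detected on all 8 arrays 2 were higher and 3 lower in kidney cells, against 27.3% and 25.2% of all genes so detected. The complement protease genes C1s1 (-2.48 ± 0.16) and Masp1 (-1.81 ± 0.07) were lower too, whereas Cd59a (1.10 ± 0.12) and Cr1l (0.65 ± 0.11), membrane regulators of complement, were higher. Hp, haptoglobin (at least 10.4-fold), Il1rn, the interleukin-1 receptor antagonist (at least 5.36-fold), and Ptx3, a long pentraxin (-2.74 ± 0.15), were lower in kidney cells. Of 15 chemokine, cytokine and acute-phase genes detected on all 8 arrays 4 were higher and 6 lower in kidney cells, against the same shares. Some chemokine genes that attract monocytes were higher. Ccl2 read 9.41, 9.57, 9.70 and 9.85 in kidney cells, against 8.25, 7.76, 8.17 and 8.33 in heart cells (1.5 ± 0.13), and Ccl7 (1.70 ± 0.08) and Ccl5 (1.96 ± 0.16) were also higher. Tnfaip3, a brake on NF-kappaB, read 9.08, 9.02, 9.14 and 9.36 in kidney cells, against 6.57, 6.31, 6.33 and 6.59 in heart cells (2.70 ± 0.13).

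Of 17 interferon response genes detected on all 8 arrays 1 was higher and 9 lower in kidney cells, against 27.3% and 25.2% of all genes so detected, with a median of -0.65. Gbp2, an interferon-induced GTPase, read 9.34, 9.25, 9.45 and 9.42 on the kidney arrays, against 11.63, 11.73, 11.58 and 11.39 on the heart arrays (-2.22 ± 0.28, adjusted p = 1.99e-06). The immunoproteasome gene Psmb8 (-1.41 ± 0.29) and the GTPase gene Irgm2 (-1.35 ± 0.33) were lower, and Irgm1 was the member that rose (0.65 ± 0.11). With the kidney and heart arrays alone in the fit, 4 of all 19 interferon members were higher. Of 13 genes of class I antigen presentation 7 were lower and 0 higher (limma, 0 higher at an unadjusted p under 0.05 too), and 4 were lower with median scaling in place of quantile normalization. Macrophage markers moved in the same direction as these immune genes. Of 5 detected on all 8 arrays 4 were lower in kidney cells, Cd14 (-1.12 ± 0.12), Lyz1 (-0.99 ± 0.11), Lyz2 (-0.98 ± 0.18) and Csf1r (-0.56 ± 0.20), and Mrc1 did not pass (-0.01 ± 0.21). Lyz1 and Lyz2 are near-identical copies that a probe may not tell apart. The mean level of the 5 ran from 6.85 to 7.10 on the kidney arrays, against 7.61 to 7.86 on the heart arrays. The other 17 markers were detected on at most 3 arrays of a tissue, 14 of them, Ptprc included, on 0 arrays. The part of such cells in the immune differences was not tested.

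Of 23 genes used to characterise MSC that had a probe, most of them surface antigens, 17 were detected on all 8 arrays, and 6 of these were higher and 7 lower in kidney cells, against 27.3% and 25.2% of all genes so detected. Nes and Vim, 2 of the 6, encode intermediate filaments inside the cell and are not surface antigens. Nes, a marker of progenitor cells, read 10.34, 10.66, 10.53 and 10.87 on the kidney arrays, against 8.26, 7.32, 7.44 and 7.95 on the heart arrays (2.86 ± 0.18, adjusted p = 7.57e-11). Mcam, the antigen CD146 of vessel-wall progenitors, read 11.27, 11.25, 11.41 and 11.55 in kidney cells, against 9.63, 9.20, 9.17 and 9.45 in heart cells (2.01 ± 0.11), and Itga5, a fibronectin receptor chain, was higher by 1.16 ± 0.10. Icam1, an adhesion molecule, read 5.89, 6.56, 5.94 and 6.31 in kidney cells, against 10.08, 10.03, 10.11 and 9.75 in heart cells (-3.82 ± 0.17). Thy1, the antigen CD90, read 12.13, 12.18, 12.21 and 12.09 in kidney cells, against 14.73, 14.85, 14.82 and 14.75 in heart cells (-2.64 ± 0.08, adjusted p = 1.04e-15). Although both tissues had it on all arrays, the gap was wide. Pdgfra, the alpha receptor for platelet-derived growth factor, read 9.94, 10.36, 10.62 and 10.21 in kidney cells, against 12.09, 12.29, 12.36 and 11.95 in heart cells (-1.89 ± 0.17), and Vcam1 fell by 1.48 ± 0.07. Nt5e, the antigen CD73, was detected on 1 kidney and 4 heart arrays and was at least 5.39-fold lower. Pdgfrb (0.30 ± 0.18, adjusted p = 0.169) and Itgb1 (0.23 ± 0.12, adjusted p = 0.132) did not pass. With the 8 arrays alone both passed as higher in kidney cells at unchanged fold, as did Pdgfrb under the replicate block and Itgb1 with median scaling or the mean of its probes. Eng passed as higher (0.26 ± 0.09) but not without kidney replicate 4 (0.19) or heart replicate 2 (0.24), and Cd44 passed as lower (-0.46 ± 0.10) but not with the mean of its probes (-0.10).

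Emcn and Flt1, genes of endothelium, were higher in kidney cells, while Kdr, Vwf and Tie1 were detected on 0 arrays. Emcn, a mucin of endothelium, read 8.56, 8.58, 8.66 and 8.76 on the kidney arrays, against 4.69, 4.65, 4.62 and 4.59 on the heart arrays, where it was undetected (at least 8.26-fold higher). Flt1, a receptor for vascular endothelial growth factor, read 10.85, 10.76, 10.86 and 10.87 in kidney cells, against 8.24, 8.09, 7.96 and 7.95 in heart cells (2.77 ± 0.10). Of 21 endothelial markers 8 were detected on 0 of the 8 arrays, Kdr and Vwf among them, Pecam1 on 2 kidney arrays and 0 heart arrays, and Cdh5 on 1 array of each tissue. Egfl7 (-0.75 ± 0.10) and Ramp2 (-0.86 ± 0.15) were lower in kidney cells, and Esam was at least 1.5-fold lower. Of renal epithelial markers detected on all 8 arrays 4 of 6 were higher in kidney cells, Krt19 (0.80 ± 0.27), Krt8 (0.59 ± 0.22), Lrp2 (0.54 ± 0.15) and Slc12a3 (0.23 ± 0.09), and Aqp1, the water channel of proximal tubule, was lower (-2.28 ± 0.16). Over all genes detected on all 8 arrays 27.3% were higher and 25.2% lower. Of all 10 members of the renal epithelial marker list 6 were higher, and 3 without heart replicate 2. Of 3 heart muscle markers detected on all 8 arrays 0 were higher in kidney cells (limma, 0 also at an unadjusted p under 0.05) and 1 was lower, Myl4 (-0.73 ± 0.10).

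Retinoid and guidance genes differed gene by gene. Retinoic acid is made from vitamin A by aldehyde dehydrogenases and read by nuclear receptors. Aldh1a3, one such enzyme, read 10.90, 10.70, 10.57 and 10.65 on the kidney arrays, against 7.01, 6.72, 6.65 and 6.80 on the heart arrays (3.91 ± 0.15, adjusted p = 3.33e-14), and Rarb, a retinoic acid receptor and a known target of it, was higher by 1.74 ± 0.16. Aldh1a1, a related enzyme, was lower (-1.85 ± 0.15), and Crabp1, a retinoic acid binding protein, was at least 4.88-fold lower and undetected in kidney cells. Of 10 retinoid genes detected on all 8 arrays 1 was higher and 5 lower. Of 26 axon guidance genes, which also steer vessels and stroma, 8 were higher and 9 lower, shares near the 27.3% and 25.2% of all genes detected on all 8 arrays. Sema7a, a membrane semaphorin, read 10.11, 9.88, 9.68 and 9.82 in kidney cells, against 6.40, 6.16, 5.93 and 6.89 in heart cells (3.53 ± 0.19), and Ntn4, a netrin, read 8.91, 8.94, 8.94 and 9.36 in kidney cells, against 4.99, 5.67, 6.18 and 6.14 in heart cells (3.29 ± 0.21). Sema3f, a secreted semaphorin, read 7.47, 7.79, 7.56 and 7.41 in kidney cells, against 11.51, 11.89, 11.97 and 11.49 in heart cells (-4.16 ± 0.25), and Slit2, a repellent, fell by 2.12 ± 0.09. Genes best known from nervous tissue lay on both sides. Slitrk5, a neuronal membrane protein, was at least 37.8-fold lower and undetected in kidney cells, whereas Ptprz1, a receptor phosphatase of glia, was at least 8.62-fold higher and undetected in heart cells. The glial markers Sox10 and S100b were detected on 0 arrays of either tissue.

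Fat, bone and stress genes gave mixed counts, to be read against the 27.3% higher and 25.2% lower of all genes detected on all 8 arrays. Of 13 adipogenic genes 4 were higher, with Lpl, lipoprotein lipase (2.13 ± 0.16), and Pparg, the regulator of fat cell formation (1.88 ± 0.17), first, and 6 were lower, among them Prdm16, a factor of brown fat (-1.86 ± 0.15), and the lipid droplet gene Plin4 (-1.67 ± 0.13). Pparg read 11.69, 11.59, 11.61 and 11.56 on the kidney arrays, against 9.82, 9.55, 9.51 and 10.08 on the heart arrays. Of 14 bone and cartilage genes 5 were higher and 4 lower in kidney cells. Of 25 antioxidant and metallothionein genes 7 were higher and 9 lower. Gsta3, a glutathione transferase, was higher (1.69 ± 0.17), and Gsta1 was at least 5.6-fold higher on a probe that its close copies may share. Sod3, the extracellular superoxide dismutase, read 6.10, 6.23, 6.47 and 6.73 in kidney cells, against 9.27, 9.43, 9.48 and 8.96 in heart cells (-2.90 ± 0.17), and Gstt1 (-2.95 ± 0.21) and Mt1, a metallothionein (-1.90 ± 0.11), were lower too. Of 21 hypoxia and glycolysis genes 5 were higher and 12 lower, with a median of -0.44. Ndrg1, a hypoxia-induced gene, read 7.37, 7.39, 7.66 and 7.35 in kidney cells, against 9.63, 9.81, 10.22 and 9.86 in heart cells (-2.44 ± 0.15), and Eno2 (-1.72 ± 0.12) and the glucose transporter gene Slc2a1 (-1.06 ± 0.07) were lower. Of 18 immediate early genes, which respond within minutes to growth factors and to handling of the cells, 2 were higher and 10 lower, with a median of -0.36. Fos (-0.92 ± 0.13), Junb (-1 ± 0.11), Fosl2 (-1.35 ± 0.13) and Zfp36 (-1.68 ± 0.11) were among the lower ones, and Egr2 (1.41 ± 0.14) and Myc (1.11 ± 0.13) were the higher ones.

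Of 13 imprinted genes, expressed from 1 parental copy, 1 was higher and 8 lower in kidney cells, against 27.3% and 25.2% of all genes detected on all 8 arrays. Dlk1, an inhibitor of fat cell formation, read 13.54, 13.76, 13.62 and 13.47 on the kidney arrays, against 11.90, 11.50, 11.65 and 11.78 on the heart arrays (1.89 ± 0.09, adjusted p = 5.30e-13). Dio3, which inactivates thyroid hormone and lies in the same imprinted region as Dlk1, read 6.69, 6.98, 6.48 and 5.61 in kidney cells, against 8.47, 8.73, 8.88 and 7.96 in heart cells (-2.07 ± 0.26). The neighbours thus lay on opposite sides. Peg3, a zinc finger gene, fell by 1.37 ± 0.15. Housekeeping lists showed little. Of 22 cytosolic ribosomal protein genes 18 did not pass, 2 being higher and 2 lower, and of 37 respiratory chain genes 27 did not pass, 7 being higher and 3 lower. Their medians were -0.03 and 0.10. Ribosomal protein genes are bright, with mean levels of 14.4 to 14.47 on the kidney arrays and 14.42 to 14.47 on the heart arrays. Whether brightness hides changes in them was not tested. Of 20 chaperone genes of the endoplasmic reticulum 6 were higher and 8 lower, and 3 were lower with median scaling.

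Genes detected on one side only were fewer in kidney cells. Detected on all 4 kidney arrays and on 0 heart arrays were 85 members, against 179 detected on all 4 heart arrays and on 0 kidney arrays. The first set includes Hoxc9, Hoxc10, Rgs4, Gbx2, Dmrta2, Emcn and Ptprz1, and the second Serpina3n, Ednrb, Slitrk5, Tbx4, Cd55, Barx1, Mmp16 and Isl1. Megf10, Itgbl1 and Eef1a2 have wide gaps and belong to none of the lists above. Megf10, a receptor for engulfing dead cells, read 11.07, 11.09, 11.10 and 11.20 on the kidney arrays, against 7, 6.69, 6.15 and 7.21 on the heart arrays (4.35 ± 0.19, adjusted p = 3.27e-13). Itgbl1, a secreted protein related to integrin beta chains, read 6.42, 6.46, 6.51 and 6.41 in kidney cells, against 11.78, 11.66, 11.92 and 11.88 in heart cells (-5.36 ± 0.20, adjusted p = 2.90e-14). Eef1a2, a translation elongation factor of muscle and neurons, read 4.95, 5.13, 5.23 and 4.89 in kidney cells, against 10.16, 10, 9.94 and 10.15 in heart cells, at least 22.2-fold lower (adjusted p = 9.16e-16).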

How the data were processed

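The 12 samples were grouped by the tissue origin in the labels. Per the file headers, the deposited table holds non-normalized probe intensity for each array beside a detection fraction from 0 to 1, which rises with signal and was read as 1 minus a detection p-value. It has 45281 entries under 35746 identifiers, of which 6798 repeat, and every entry was treated as a separate probe of the gene its identifier names, which for the repeats is in doubt. Per the submitters' processing notes the authors used lumi, and no setting of it is stated. Their deposited processed intensity, on a linear scale, served only as an alternative, in which only the first entry of a repeated identifier was used. The platform's annotation names 26385 identifiers with 1 gene and 18 with several, and leaves 9343 unlisted; only the first were named.

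Raw intensities were background-corrected and quantile-normalized with neqc of limma 3.58.1 in R 4.3.3, with an offset of 16, then put on the log2 scale. Probes detected (fraction above 0.95) on at least 4 of the 12 arrays were kept, 20649 in all, 17315 of them named. The brightest kept probe stood for a gene. The model (lmFit, then eBayes with trend) gave each tissue its mean over all 12 arrays, and the contrast of kidney minus heart was tested two-sided with Benjamini-Hochberg adjustment over 10797 genes at 0.05. The fit was tested on simulated data. For a bound, each dim array was given its lowest detected signal or the probe's own value, whichever was higher, and their mean was compared with the bright tissue's; 405 called members are bounds. Same-numbered kidney and heart arrays deviated with correlations of -0.04, 0.13, 0.12 and -0.04. Such small values cannot decide whether replicate numbers pair the samples. Gene lists were described by counts and medians, not tested.

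The members and gene lists were chosen with earlier results of these data known. Genes were named by a rule: the 15 largest rises and 15 largest falls that passed, did not overlap between tissues and were detected on all arrays of the higher tissue; up to 5 rises and 5 falls per list; any member of a list of up to 15; cell type markers; genes detected in 1 tissue only; and surface antigen and transcription factor genes whether or not they passed. Others are said to be chosen after their values were seen. Alternatives were other arrays in the fit, background correction, scaling, offset, filters, probe choice, the authors' processed values, a replicate block and single replicates left out.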

Additional observations from a re-analysis of the deposited data

Results flagged for a closer look

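Of 360 groups of 4 arrays, the kidney and heart values of 180 named genes, 15 had 1 array whose gap to the nearest other array exceeded Dixon's critical value for 4 samples, on the normalized log2 scale. Chance flags about 1 in 20 groups. On kidney replicate 1, Tbx5 stood at 5.35, above the others, and Pdgfrb at 9.51, below them. On kidney replicate 2, Tcf21 (5), Actg2 (15.14) and Flt1 (10.76) were each below the other kidney arrays. On kidney replicate 3, Tpx2 (9.64) and Ndrg1 (7.66) were above the others, and Fst (11.09) was below them. On kidney replicate 4, Pcolce2 (11.41) and Ntn4 (9.36) were above the others. On heart replicate 1, Des (8) was above the other heart arrays and Fst (13.32) below them. On heart replicate 2, Peg3 (9.37) was above the others. On heart replicate 4, Hoxc13 (5.47) and Ankrd1 (13.12) were above them. The values of Tbx5 and Tcf21 in kidney cells and of Hoxc13 in heart cells lie under the detection floor, where they have no order. Among these genes only Pdgfrb did not pass in the comparison of kidney with heart.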

How the results depend on the processing

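The number of members that passed was 5222 in all and 4583 to 5633 under the other arrays in the fit, background settings, scalings, filters, probe choices and authors' processed values, except that identifiers that occur only once in the table, an alternative chosen after seeing the data that tests fewer genes, gave 3451 (1758 higher, 1693 lower). That alternative could test 111 of the 180 named genes, of which 110 kept direction and side of the threshold and 1, Hoxa3, newly passed as higher. The 69 whose naming rests on repeated identifiers are Hoxc10, Hoxa9, Hoxd9, Hoxb7, Hoxb3, Hoxa2, Hoxa13, Hey2, Tbx5, Nr2f2, Tbx4, Barx1, Ung, Cdc6, Cdc45, Cdk1, Cdkn1b, Rb1, Insig1, Fdps, Nsdhl, Fads2, Mylk, Fjx1, Ankrd1, Ednrb, Ramp3, Vip, Rspo3, Dkk3, Pdgfb, Fgf10, Angpt2, Igf1, Igfbp4, Col2a1, Col7a1, Col6a1, Nid2, Pcolce2, Htra1, Mmp13, Adamtsl3, Mmp3, C1s1, Hp, Ptx3, Il1rn, Gbp2, Psmb8, Irgm1, Nes, Mcam, Itga5, Nt5e, Itgb1, Sema7a, Sema3f, Slitrk5, Ptprz1, Pparg, Gsta1, Gsta3, Dlk1, Peg3, Flt1, Aqp1, Itgbl1 and Eef1a2. Genes given with values but not among the 180, such as Chrd, Fos and Cd14, were not checked one by one for repeated identifiers or under the alternatives. The number at least 2-fold, 1162, was 659 without background correction and 725 with only probes detected on all 12 arrays. Leaving out 1 array at a time gave 4760 to 5021 passing and 1141 to 1205 at least 2-fold. The replicate block gave 5208 passing and 1162 at least 2-fold. Kidney replicates 2 and 3 correlated best with the same-numbered heart arrays (0.13 and 0.12). Kidney replicate 1 correlated best with heart replicate 4 (0.12), and kidney replicate 4 with heart replicate 3 (0.07). Whether the numbers pair the samples is not settled by these values. Of 3098 recomputed changes of 180 named genes 3080 kept direction and side of the threshold, 5 no longer passed, 12 newly passed and 1 turned, Gata4 without heart replicate 4 (-0.0125, against 0.05, and up to 0.10 without heart replicate 3). Low signal limits genes near the floor, whose changes are bounds, and the brightest probes lie near the top of the scale. The cause was not tested.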
